A study of Mus musculus with 6 samples.

Results

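Cells hold zinc in a narrow range through 3 kinds of protein. Metallothioneins are short cysteine-rich proteins that bind zinc and copper in the cytosol. Transporters of the SLC30 (ZnT) family move zinc out of the cytosol, across the plasma membrane or into vesicles, and transporters of the SLC39 (ZIP) family move it in. The zinc-finger factor MTF-1 senses free zinc and binds metal response elements (MREs) in the promoters of the metallothionein genes and of Slc30a1. In mouse development, Mt1 and Mt2 are known for strong expression in the decidua and the visceral yolk sac, and the importer Slc39a4 for expression in the visceral yolk sac.

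Described here are 10 genes of this system: the metallothioneins Mt1 and Mt2, their regulator Mtf1, the exporters Slc30a1 and Slc30a4, and the importers Slc39a1, Slc39a4, Slc39a8, Slc39a10 and Slc39a14. They were chosen by gene symbol, with earlier results of the same line-against-line comparison in view, so their levels and differences are given as a description and without a p-value. All 10 were among the 23238 symbols of the count files, and all 10 passed the filter on low counts. The libraries were 3 of an EWS-OCT-4 line and 3 of an EGFP control line, both mouse embryonic stem cells of strain 129/Ola that the labels name Niwa. The EWS-OCT-4 line stably carried EWS OCT4A-GFP, in which EWS, the RNA-binding protein rearranged in Ewing sarcoma, is joined to the A isoform of the pluripotency factor OCT-4 and to GFP, and the EGFP line stably carried GFP alone. Both lines grew in stem cell medium with LIF and both received doxycycline at 1 µg/ml, which lowers their endogenous OCT-4. No library was without doxycycline, each construct was represented by 1 line, and the labels do not say whether the 3 libraries of a line were separate cultures. Differences between the lines therefore cannot be assigned to the fusion alone, and the spread between libraries may be technical.

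Libraries of 3′ transcript tags held 10978025 to 12281444 counts in the EWS-OCT-4 line and 13239383 to 14935887 in the EGFP line, and 1 count stood for 0.0650 to 0.0924 CPM (counts per 1000000 counts of tested genes, scaled between libraries by TMM). Of 13467 genes tested, 67.4% differed between the lines, 34.1% lower and 33.3% higher in the EWS-OCT-4 line, and the libraries of the lines did not overlap for 72.7%. Library 3 of each line stood apart from libraries 1 and 2. When counts of 2 libraries of a line were compared over genes, the chi-square divided by its degrees of freedom was 34.4 and 34.6 for the EWS-OCT-4 pairs with library 3 and 25.3 and 26.8 for the EGFP pairs with library 3. Between libraries 1 and 2 it was 4.31 in the EWS-OCT-4 line and 4.01 in the EGFP line. Markers of the labelled cell type were present in the EWS-OCT-4 line and low in the EGFP line. The summed level of 12 pluripotency markers was 5774 to 6368 CPM in EWS-OCT-4 libraries and 463 to 591 CPM in EGFP libraries. The summed level of 12 trophoblast markers was 271 to 306 CPM in EWS-OCT-4 libraries and 10825 to 10891 CPM in EGFP libraries, and the trophoblast genes Plac1 and Prl3d1 were at 0 in the EWS-OCT-4 line. For 13 markers of primitive and visceral endoderm the sums were 7.72 to 11.4 CPM in EWS-OCT-4 libraries and 110 to 131 CPM in EGFP libraries, with Afp and Cubn at 0 in the EWS-OCT-4 line. In the EGFP line that sum lay mostly in Dab2 (79.5 CPM, against 1.53 CPM in the EWS-OCT-4 line) and Gata6 (31.2 CPM, against 1.07 CPM in the EWS-OCT-4 line). Of the 6 endoderm markers tested, 4 were lower, 1 (Gata4) was higher and 1 was not called. For 8 markers of mesenchyme and feeder fibroblasts the sums were 20.8 to 28.1 CPM in EWS-OCT-4 libraries and 12.5 to 16.7 CPM in EGFP libraries, with Postn at 0 in the EWS-OCT-4 line. That sum lay mostly in Thy1 in the EWS-OCT-4 line (17.9 CPM, against 0.636 CPM in the EGFP line). Of the 5 tested, Thy1 was higher, Postn was lower and 3 were not called. Most of the zinc genes below were lower in the same libraries in which trophoblast markers were lower, and the part that cell identity has in their levels was not tested. In bulk RNA, fewer cells of one type and less RNA per cell cannot be told apart.

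The annotated promoters of Mt1, Mt2 and Slc30a1 are shown because MTF-1 is known to act on these genes through MREs. They are the 250 bases before the RefSeq start site (build GRCm38.p6, plus strand, chr8:94178839-94179088 for Mt1, chr8:94172368-94172617 for Mt2 and chr1:191906531-191906780 for Slc30a1); these start sites differ by some bases from the GENCODE starts given with the genes. Capitals mark matches on either strand to the 7-base MRE core, searched as TGCACNC and TGCGCNC, where N is any base; GNGTGCA and GNGCGCA are the same motifs read on the other strand.
Mt1: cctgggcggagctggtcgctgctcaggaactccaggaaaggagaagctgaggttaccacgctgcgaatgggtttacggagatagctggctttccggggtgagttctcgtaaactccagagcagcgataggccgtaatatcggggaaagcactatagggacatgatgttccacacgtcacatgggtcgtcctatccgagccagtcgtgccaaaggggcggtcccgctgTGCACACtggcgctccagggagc
Mt2: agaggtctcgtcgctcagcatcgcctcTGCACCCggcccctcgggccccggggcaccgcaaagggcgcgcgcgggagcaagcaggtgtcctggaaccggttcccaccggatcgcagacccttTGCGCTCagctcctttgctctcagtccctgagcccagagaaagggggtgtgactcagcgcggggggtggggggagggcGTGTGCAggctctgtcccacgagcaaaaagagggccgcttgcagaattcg
Slc30a1: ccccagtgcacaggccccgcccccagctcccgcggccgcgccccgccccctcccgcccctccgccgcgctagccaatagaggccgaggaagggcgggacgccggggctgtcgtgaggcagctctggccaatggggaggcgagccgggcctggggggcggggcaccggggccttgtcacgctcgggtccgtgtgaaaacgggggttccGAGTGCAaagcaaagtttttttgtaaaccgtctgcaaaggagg
In the whole window of 300 bases, which runs 50 bases past the start site, Mt2 had 4 matches, Mt1 had 3 and Slc30a1 had 2, of which 3, 1 and 1 lay wholly in the bases shown. The other matches began at base 5 of Mt2, at bases 3 and 21 of Mt1 and at base 31 of Slc30a1, counted from the start site. Of 32851 promoter windows in the table, 25.7% held at least 1 match, 7.11% at least 2, 1.97% at least 3 and 0.517% at least 4. Among the other members with a window, Slc30a4 had 3 matches and 1 of the 2 windows of Slc39a8 had 1, whereas Mtf1, Slc39a1 and both windows of Slc39a10 had none. A match is a run of letters and not a bound site, and no match says only that these letters were not in the window. The counts of matches hold for these annotated start sites only, and bases past the windows were not searched.

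**Figure D1:**
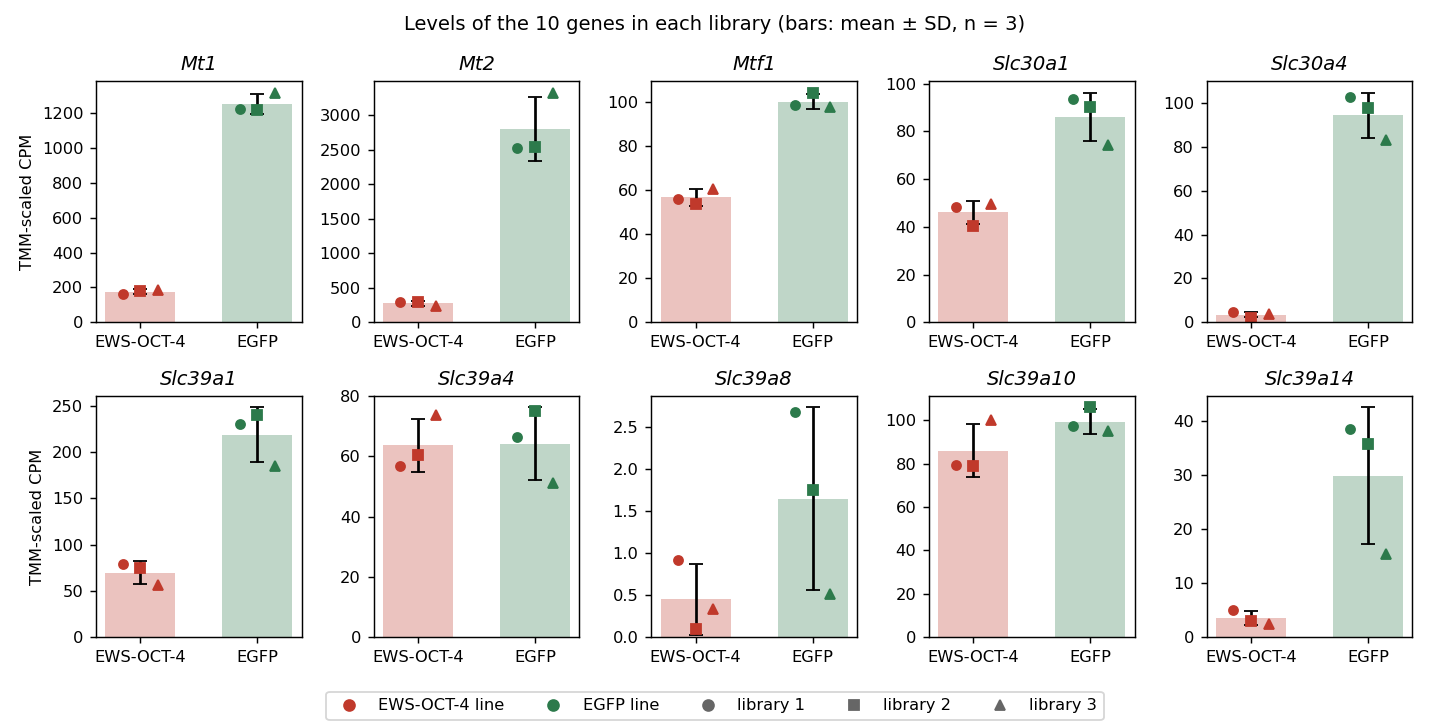
Level of each of the 10 genes in TMM-scaled CPM (linear axis from 0), with bars for the mean and SD of 3 libraries and a symbol for each library. The 7 genes Mt1, Mt2, Mtf1, Slc30a1, Slc30a4, Slc39a1 and Slc39a14 were lower in every EWS-OCT-4 library than in any EGFP library, and Slc39a4, Slc39a8 and Slc39a10 overlapped.

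Both metallothioneins were lower in the EWS-OCT-4 line. Mt1 (ENSMUSG00000031765.8, chromosome 8, 94179082 to 94180327, plus strand, GRCm38) had 163, 181 and 187 CPM in the EWS-OCT-4 libraries, against 1223, 1219 and 1318 CPM in the EGFP libraries. The means were 177 ± 12.5 CPM in the EWS-OCT-4 line and 1253 ± 55.9 CPM in the EGFP line (SD, n = 3 each), a log2 fold change of -2.82 (SE 0.12), or 7.08-fold lower in the EWS-OCT-4 line. Mt2 (ENSMUSG00000031762.7, chromosome 8, 94172664 to 94173568, plus strand) had 299, 297 and 239 CPM in the EWS-OCT-4 libraries, against 2528, 2547 and 3333 CPM in the EGFP libraries. Its means were 279 ± 34.1 CPM in the EWS-OCT-4 line and 2803 ± 459 CPM in the EGFP line (SD, n = 3 each), a log2 fold change of -3.33 (SE 0.16), or 10.1-fold lower in the EWS-OCT-4 line. The highest EWS-OCT-4 library lay below the lowest EGFP library for both genes, and EGFP library 3 was the highest of all 6 for both. The span of Mt2 is overlapped on the opposite strand by Gm45774, which was not among the counted symbols.

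**Figure D2:**
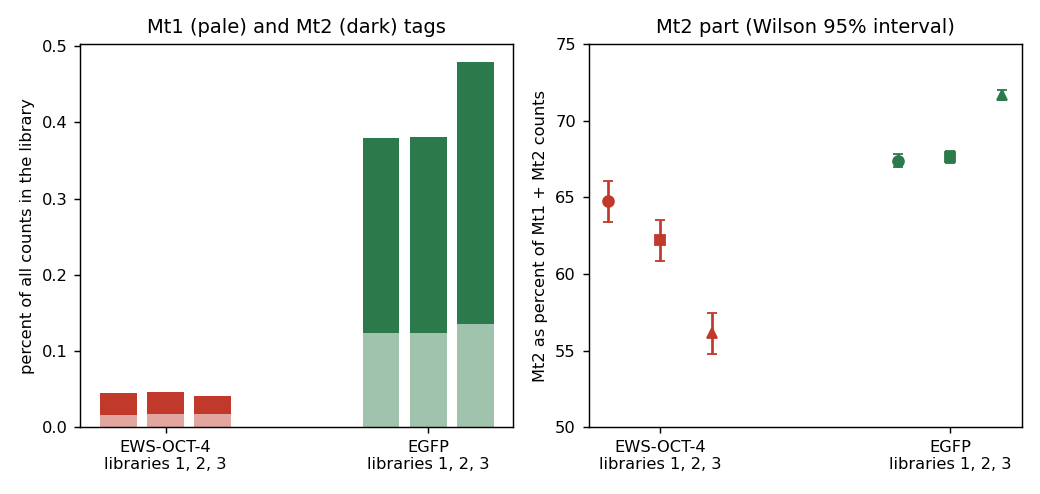
Left, the share of all counts in each library taken by Mt1 (pale) and Mt2 (dark), as stacked bars from 0. Right, Mt2 as a percentage of the Mt1 and Mt2 counts with its Wilson 95% interval (axis from 50 to 75%), which was at most 64.7% in the EWS-OCT-4 libraries and at least 67.4% in the EGFP libraries.

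Together Mt1 and Mt2 took 0.0457%, 0.0470% and 0.0413% of all counts in the EWS-OCT-4 libraries, against 0.380%, 0.381% and 0.479% in the EGFP libraries (Wilson 95% interval of the first 0.0444 to 0.0469, covering counting error only). The balance between both genes did not overlap between the libraries of the lines. Mt2 made up 64.7%, 62.2% and 56.1% of their joint counts in the EWS-OCT-4 libraries, and 67.4%, 67.6% and 71.7% in the EGFP libraries. The Wilson 95% intervals of library 3, also of counting error only, were 54.8 to 57.5% in the EWS-OCT-4 line and 71.3 to 72.0% in the EGFP line. Library 3 was thus the lowest of the EWS-OCT-4 line and the highest of the EGFP line, and the gap between the lines was narrower for libraries 1 and 2. The spread within the EWS-OCT-4 line, 56.1 to 64.7%, was wider than the gap from its highest library to the lowest EGFP library, at 67.4%. The shares come from tag counts of genes that differ in sequence at the 3′ end: the longest identical run in the last 300 bases of their GENCODE M21 transcripts was 17 bases, and no window of 50 bases from the last 300 of any of the 10 genes occurred in a transcript of another gene.

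Mtf1, the gene of the zinc-sensing regulator, was also lower (ENSMUSG00000028890.13, chromosome 4, 124802104 to 124849800, plus strand). It had 55.8, 53.5 and 60.6 CPM in the EWS-OCT-4 libraries, against 98.6, 104 and 97.6 CPM in the EGFP libraries. The groups did not overlap, and the log2 fold change was -0.82 (SE 0.12), or 1.77-fold lower in the EWS-OCT-4 line. Its annotated span is overlapped on the opposite strand by 1110065P20Rik, which had 704 counts in the EWS-OCT-4 line and 939 in the EGFP line, and whether the counting used strand is not given in the sources used here. Genes that overlap members on the same strand, n-R5s192 for Mtf1, Gm43429 and Gm43428 for Slc39a8 and Gm28151 and Gm37393 for Slc39a10, were not among the counted symbols.

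The 2 exporters differed in size of change. Slc30a1 encodes ZnT1, the exporter of the plasma membrane and a known MTF-1 target in mouse (ENSMUSG00000037434.7, chromosome 1, 191906767 to 191913247, plus strand). It had 48.1, 40.5 and 49.7 CPM in the EWS-OCT-4 libraries, against 93.7, 90.1 and 74.5 CPM in the EGFP libraries, a log2 fold change of -0.90 (SE 0.15), or 1.87-fold lower in the EWS-OCT-4 line. The groups did not overlap, although EGFP library 3 was the lowest of its line. On the opposite strand its span meets 1700034H15Rik, which had 33 counts in the EWS-OCT-4 line and 73 in the EGFP line.

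Slc30a4 had the largest change of the 10 genes. It encodes ZnT4, which loads zinc into vesicles and is the gene of the mouse mutant lethal milk (ENSMUSG00000005802.12, chromosome 2, 122681233 to 122702663, minus strand). Its level was 4.52, 2.12 and 3.86 CPM in the EWS-OCT-4 libraries, against 103, 97.5 and 82.9 CPM in the EGFP libraries. In counts this was 49, 23 and 46 in EWS-OCT-4 libraries and 1378, 1390 and 1274 in EGFP libraries. The log2 fold change of -4.75 (SE 0.25) corresponds to a level 26.8-fold lower in the EWS-OCT-4 line, and 3.22% of all tested genes had a lower value than this. No EWS-OCT-4 library reached a level near the lowest EGFP library. On the opposite strand its span meets 4930417H01Rik, which was not among the counted symbols.

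Importers split into 2 that were lower and 3 whose libraries overlapped. Slc39a1 encodes ZIP1, a widely expressed importer of the plasma membrane (ENSMUSG00000052310.9, chromosome 3, 90248172 to 90253612, plus strand). It had 79.05, 74.4 and 55.9 CPM in the EWS-OCT-4 libraries, against 231, 240 and 185 CPM in the EGFP libraries, a log2 fold change of -1.65 (SE 0.16), or 3.13-fold lower in the EWS-OCT-4 line. Library 3 was the lowest within each line, and the lines did not overlap.

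Slc39a14 encodes ZIP14, which carries zinc, iron and manganese (ENSMUSG00000022094.15, chromosome 14, 70303469 to 70351425, minus strand). It had 4.98, 2.96 and 2.52 CPM in the EWS-OCT-4 libraries, against 38.6, 35.7 and 15.4 CPM in the EGFP libraries. The log2 fold change was -3.10 (SE 0.39), or 8.58-fold lower in the EWS-OCT-4 line. Even EGFP library 3, the lowest of its line, was above all 3 EWS-OCT-4 libraries.

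Slc39a4 encodes ZIP4, the importer of gut and yolk sac whose human gene is mutated in acrodermatitis enteropathica (ENSMUSG00000063354.7, chromosome 15, 76612383 to 76617384, minus strand). It had 56.7, 60.5 and 73.6 CPM in the EWS-OCT-4 libraries, against 66.4, 74.98 and 51.1 CPM in the EGFP libraries. The lines overlapped over nearly their whole range, with a log2 fold change of -0.011 (SE 0.17). Library 3 was the highest EWS-OCT-4 library and the lowest EGFP library, and the log2 difference was -0.25 over libraries 1 and 2 alone, where it was past the threshold.

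Slc39a10 encodes ZIP10, an importer of the plasma membrane that MTF-1 represses in mouse cells (ENSMUSG00000025986.6, chromosome 1, 46807544 to 46892852, minus strand). It had 79.3, 78.9 and 100.003 CPM in the EWS-OCT-4 libraries, against 97.2, 106 and 95.01 CPM in the EGFP libraries. EWS-OCT-4 library 3 lay inside the EGFP range while the other EWS-OCT-4 libraries lay below it. The log2 fold change was -0.21 (SE 0.14) and did not pass, but without EWS-OCT-4 library 3 it was -0.33 and passed.

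Slc39a8 encodes ZIP8, an importer of zinc and manganese (ENSMUSG00000053897.15, chromosome 3, 135825279 to 135888572, plus strand). It was near the detection limit, with 10, 1 and 4 counts in the EWS-OCT-4 libraries and 36, 25 and 8 counts in the EGFP libraries. EGFP library 3 lay below EWS-OCT-4 library 1, and the log2 fold change of -1.85 (SE 0.80) did not pass. No count came from 4933401H06Rik, which overlaps it on the opposite strand. The log2 fold change was -2.85 without EWS-OCT-4 library 1 and -2.29 without EGFP library 3, and passed in both cases.

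In counts, 7 of the 10 genes were called lower in the EWS-OCT-4 line at an adjusted p of 0.05 (edgeR's quasi-likelihood test over all genes), 0 were called higher and 3 were not called, beside 34.1% lower and 33.3% higher among all genes tested. Of the 7, 5 were at least 2-fold lower (Mt1, Mt2, Slc30a4, Slc39a1 and Slc39a14), beside 23.6% of all genes tested. The median log2 fold change of the 10 was -1.75, and that of all tested genes was -0.0042. Since the genes were chosen with this comparison known, nothing is read from these shares.

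**Figure D3:**
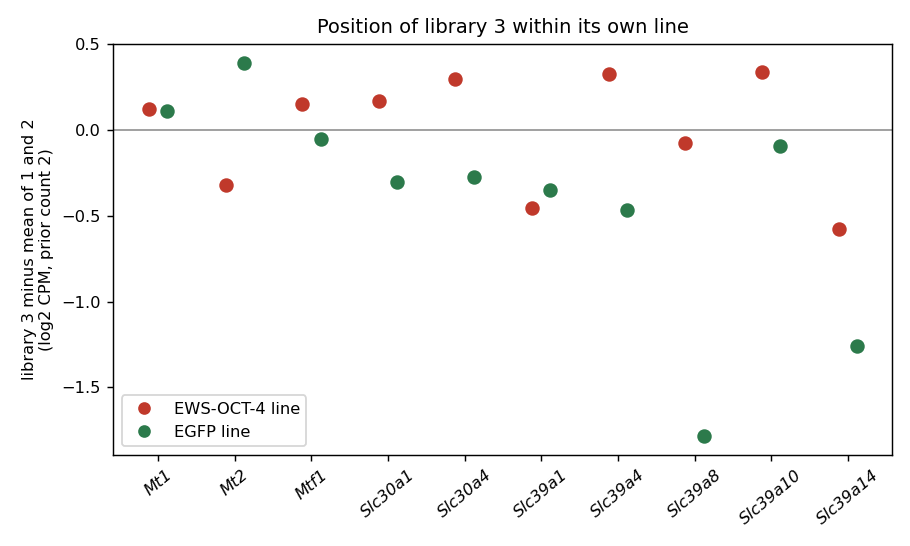
For each gene, the log2 CPM of library 3 minus the mean of libraries 1 and 2 of the same line (EWS-OCT-4 red, EGFP green; prior count 2). The points of Mt1 lie together near 0, those of Mt2, Mtf1, Slc30a1, Slc30a4, Slc39a4 and Slc39a10 lie on opposite sides of 0, and Slc39a8 and Slc39a14 lie furthest down in the EGFP line.

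Library 3 of each line moved the members in several directions, as the plot of its position shows. Relative to libraries 1 and 2 of its own line, library 3 was at -0.32 for Mt2 in the EWS-OCT-4 line and at 0.39 in the EGFP line on the log2 scale. For Slc39a14 it was at -0.58 in the EWS-OCT-4 line and at -1.26 in the EGFP line. For Mt1 it was at 0.12 in the EWS-OCT-4 line and at 0.11 in the EGFP line. With libraries 1 and 2 only, all 10 genes were called lower, the 7 above among them, beside 38.0% of all genes tested in those libraries.

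**Figure D4:**
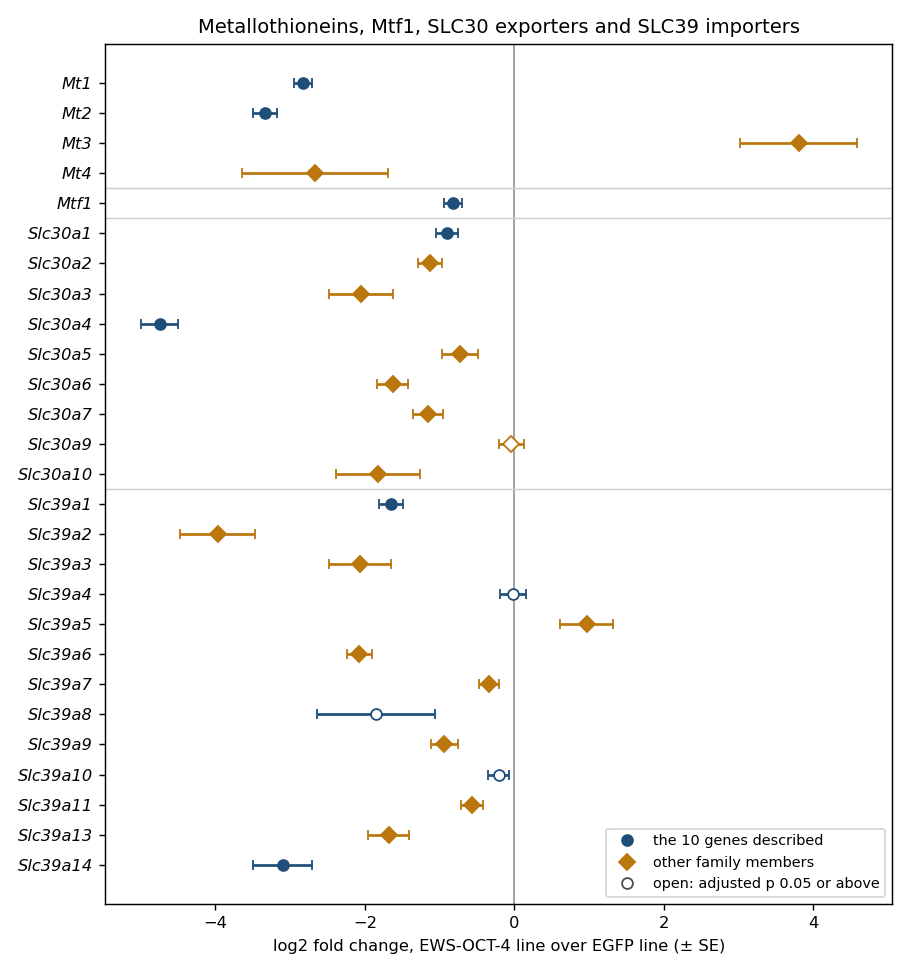
Log2 fold change (EWS-OCT-4 line over EGFP line, ± SE from the fit) of all tested metallothioneins, Mtf1, SLC30 exporters and SLC39 importers. Circles are the 10 genes described and diamonds the other family members, and open symbols have an adjusted p of 0.05 or above; Mt3 and Slc39a5 are the filled symbols to the right of 0.

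Of the other 17 SLC30 and SLC39 genes in the files, 15 were tested, of which 13 were lower, 1 was higher and 1 was not called, beside 34.1% lower and 33.3% higher among all genes tested. Their median log2 fold change was -1.15. The lists of other genes, here and below, were also chosen with earlier results of these data known. Nothing is read from their shares, and the adjusted p of a listed gene is given as a description. Here and below, fell and rose mean lower and higher in the EWS-OCT-4 line than in the EGFP line. In which line a level changed was not tested, as no library was without doxycycline. Among exporters outside the 10 genes, 6 of 7 tested fell and Slc30a9 (26.8 ± 3.27 CPM in the EWS-OCT-4 line, 27.5 ± 3.06 CPM in the EGFP line) did not pass. Slc30a6, a partner of Slc30a5 in the early secretory pathway, fell to 7.77 ± 0.936 CPM in the EWS-OCT-4 line, against 24.1 ± 3.89 CPM in the EGFP line (log2 fold change -1.63, SE 0.21, edgeR adjusted p = 6.2e-05). Slc30a7, an exporter of the Golgi, fell to 16.2 ± 2.97 CPM in the EWS-OCT-4 line, against 36.0 ± 6.32 CPM in the EGFP line (-1.15, edgeR adjusted p = 0.00051). Slc30a2, an exporter of vesicles, fell to 22.2 ± 2.05 CPM in the EWS-OCT-4 line, against 48.4 ± 7.14 CPM in the EGFP line (-1.13, edgeR adjusted p = 0.00017). The exporter of synaptic vesicles Slc30a3 was low in both lines and fell, at 0.778 ± 0.130 CPM in the EWS-OCT-4 line and 3.24 ± 0.853 CPM in the EGFP line (-2.05, edgeR adjusted p = 0.0018).

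The calls of Slc30a5 and Slc30a10 were near the threshold and were lost when some single libraries were left out. Slc30a5 stood at 11.6 ± 3.66 CPM in the EWS-OCT-4 line and 19.2 ± 0.610 CPM in the EGFP line (-0.73, edgeR adjusted p = 0.0221). This call was lost without EGFP library 1 (adjusted p = 0.0654) or EGFP library 2 (0.0520), at log2 fold changes of -0.71 and -0.75. Without EWS-OCT-4 library 3 the log2 fold change was -0.49 and the call stayed (edgeR adjusted p = 0.0335). The adjusted p ranged from 0.0119 to 0.207 over 16 alternatives, the highest in the test of changes beyond 1.5-fold. Slc30a10, which exports manganese, stood at 0.361 ± 0.167 CPM in the EWS-OCT-4 line and 1.29 ± 0.279 CPM in the EGFP line (-1.82, edgeR adjusted p = 0.0151). It passed the filter on low counts through the EGFP libraries alone, so its p is not taken as evidence for a direction. Its adjusted p was 0.0724 without EWS-OCT-4 library 2, 0.0609 without EWS-OCT-4 library 3 and 0.0573 without EGFP library 2, within a range of 0.0151 to 0.0740 over 15 alternatives. Slc30a8, the exporter of insulin granules, and Tmem163, a zinc exporter outside the family, were not tested in the main fit. Tmem163 had 15, 25 and 7 counts in the EWS-OCT-4 libraries and 0, 0 and 1 in the EGFP libraries. It was tested and called higher without EWS-OCT-4 library 3, without EGFP library 1, 2 or 3, with libraries 1 and 2 only, and with all genes unfiltered.

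Of the SLC39 importers outside the 10 genes, all 8 tested passed, 7 lower and 1 higher, while Slc39a12 had no count. Slc39a6, an importer named for its estrogen response in human cells, fell to 22.3 ± 2.89 CPM in the EWS-OCT-4 line, against 93.6 ± 11.5 CPM in the EGFP line (log2 fold change -2.07, SE 0.16, edgeR adjusted p = 2.2e-06). Slc39a2 fell to 0.322 ± 0.210 CPM in the EWS-OCT-4 line, against 5.23 ± 0.407 CPM in the EGFP line (-3.97, SE 0.50). Slc39a3 was at 2.37 ± 1.17 CPM in the EWS-OCT-4 line and 10.04 ± 3.71 CPM in the EGFP line (-2.07, and -2.73 over libraries 1 and 2 alone), and Slc39a13 at 5.998 ± 1.14 CPM in the EWS-OCT-4 line and 19.3 ± 5.61 CPM in the EGFP line (-1.68). Slc39a9 (-0.94) and Slc39a11 (-0.57) fell less.

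Slc39a5 and Slc39a7 passed narrowly. Slc39a5 had 5.81, 4.43 and 8.14 CPM in the EWS-OCT-4 libraries, against 2.24, 3.02 and 4.10 CPM in the EGFP libraries (0.97, SE 0.36, edgeR adjusted p = 0.0330), and was the only importer called higher. Its call was lost without EWS-OCT-4 library 1 (adjusted p = 0.0606) or 3 (0.120) and without EGFP library 1 (0.116) or 2 (0.0866), within a range of 0.0189 to 0.120 over 15 alternatives. Slc39a7, which releases zinc from the endoplasmic reticulum, was at 96.2 ± 13.5 CPM in the EWS-OCT-4 line and 121 ± 5.71 CPM in the EGFP line (-0.33, SE 0.13, edgeR adjusted p = 0.0491). Its adjusted p was 0.194 and 0.130 without EWS-OCT-4 library 1 or 2, and 0.0783 and 0.128 without EGFP library 1 or 2. The adjusted p of Slc39a7 ranged from 9.6e-05 to 0.963 over 16 alternatives, the highest in the test of changes beyond 1.5-fold.

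Mt1 and Mt2 lie in a cluster with Mt3, known from brain, and Mt4, known from squamous epithelium, over 43131 bases of chromosome 8 in the order Mt4, Mt3, Mt2 and Mt1. Mt2 ends 5513 bases before Mt1 begins, and Mt3 ends 18517 bases before Mt2. Mt3 moved the other way from its neighbours at low counts. It had 17, 26 and 15 counts in the EWS-OCT-4 libraries, against 1, 0 and 4 in the EGFP libraries (log2 fold change 3.81, SE 0.78, edgeR adjusted p = 0.0015). Without EGFP library 3, which held most of the EGFP counts, the log2 fold change was 5.23. Mt4 had 8, 0 and 0 counts in the EWS-OCT-4 libraries, against 15, 16 and 38 in the EGFP libraries (-2.67, SE 0.98, edgeR adjusted p = 0.0331). Its value rested on EWS-OCT-4 library 1, without which the line had no count and the fitted log2 fold change of -7.38 depends on the prior count. Without EWS-OCT-4 library 3 the log2 fold change was -2.07. The call was lost in each of the other 5 fits that left out a library, with an edgeR adjusted p up to 0.117, within a range of 0.0027 to 0.122 over 15 alternatives. Mt3 passed the filter on low counts through the EWS-OCT-4 libraries alone, and Mt4 through the EGFP libraries alone. Their adjusted p is therefore not taken as evidence for a direction.

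Of 8 symbols of other genes reported as MTF-1 targets in mouse cells, 7 were in the count files and 6 were tested. Of those tested, 4 fell, 0 rose and 2 (Gclc, -0.18, and Pgf, -0.35) did not pass. Among all genes tested, 34.1% were lower and 33.3% higher. Ndrg1, a stress-responsive gene also known from trophoblast, fell to 3.66 ± 1.54 CPM in the EWS-OCT-4 line, against 717 ± 41.9 CPM in the EGFP line (log2 fold change -7.62, SE 0.27, edgeR adjusted p = 2.3e-08). Csrp1, a LIM protein of the actin cytoskeleton, fell to 32.3 ± 1.84 CPM in the EWS-OCT-4 line, against 434 ± 94.6 CPM in the EGFP line (-3.75, SE 0.18). Cebpa, a transcription factor of liver and placenta, fell to 0.850 ± 0.524 CPM in the EWS-OCT-4 line, against 34.4 ± 8.25 CPM in the EGFP line (-5.34, and -4.71 over libraries 1 and 2 alone). Sepw1, the gene of selenoprotein W, was at 20.7 ± 3.20 CPM in the EWS-OCT-4 line and 29.1 ± 1.91 CPM in the EGFP line (-0.49, edgeR adjusted p = 0.0237). That call was lost without EWS-OCT-4 library 1 or 2 (adjusted p = 0.0931 and 0.0869) or EGFP library 1 (0.0772). The adjusted p of Sepw1 ranged from 0.00091 to 0.606 over 16 alternatives, the highest in the test of changes beyond 1.5-fold. Afp was at 0 in the EWS-OCT-4 line and had 4, 1 and 8 counts in the EGFP libraries.

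**Figure D5:**
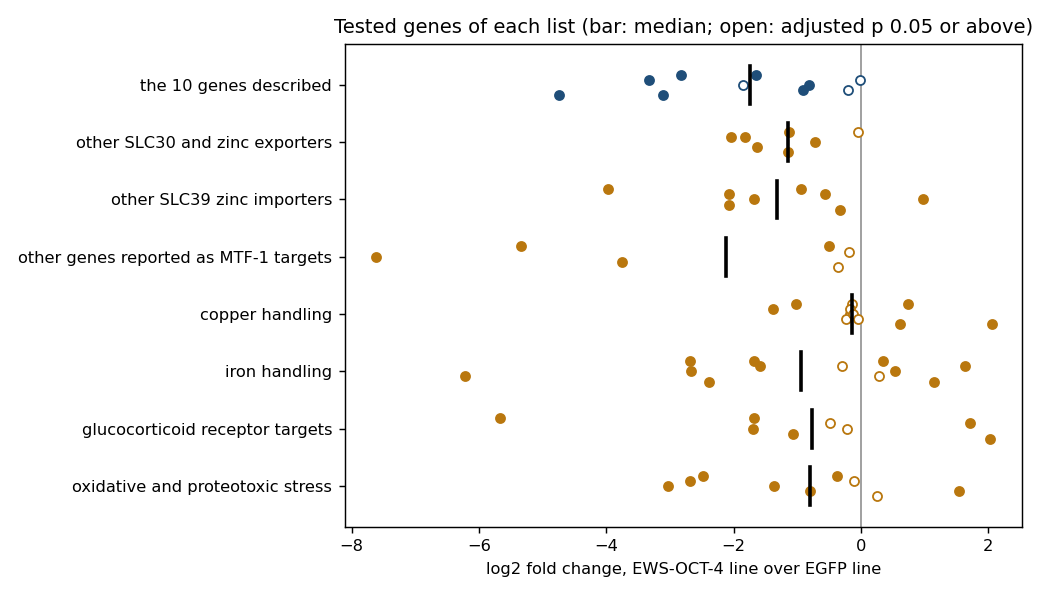
Log2 fold change (EWS-OCT-4 line over EGFP line) of every tested gene in the 10 genes described and in 7 lists of related genes; open symbols have an adjusted p of 0.05 or above and black bars are medians. Copper handling has its median near 0 and values on both sides, whereas the transporters lie mostly to the left of 0.

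Genes of copper and iron handling were called in both directions, beside 33.3% higher and 34.1% lower among all genes tested. Of 11 tested genes of copper handling, 3 rose, 2 fell and 6 did not pass (median log2 fold change -0.14). Commd1, linked to copper export, rose to 54.1 ± 22.7 CPM in the EWS-OCT-4 line, against 13.0 ± 1.83 CPM in the EGFP line (2.06, SE 0.31), Slc31a2, a copper transporter of endosomes, fell by 1.38 on the log2 scale, and the metalloreductase Steap2 fell by 1.01. Of 12 genes of iron handling, 4 rose, 6 fell and 2 did not pass (median -0.94). Slc40a1, the iron exporter ferroportin, fell to 2.43 ± 0.326 CPM in the EWS-OCT-4 line, against 183 ± 30.5 CPM in the EGFP line (-6.22, SE 0.21, edgeR adjusted p = 2.0e-08). Tfrc, the transferrin receptor, fell to 190 ± 21.1 CPM in the EWS-OCT-4 line, against 1225 ± 51.9 CPM in the EGFP line (-2.69, SE 0.12), and Steap3, an endosomal iron reductase, fell by 2.67 on the log2 scale.

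Metallothioneins are also induced by glucocorticoids and by oxidative or heavy metal stress, so readouts of both were examined. Among all genes tested, 33.3% were called higher and 34.1% lower. Of 8 genes of the glucocorticoid list, the receptor gene Nr3c1 among them, 2 rose, 4 fell and 2 did not pass (median log2 fold change -0.77). Sgk1 rose to 152 ± 5.25 CPM in the EWS-OCT-4 line, against 37.3 ± 6.16 CPM in the EGFP line (2.03, SE 0.15), and Fkbp5 rose to 100.1 ± 27.2 CPM in the EWS-OCT-4 line, against 30.4 ± 5.97 CPM in the EGFP line (1.72, SE 0.22). Zbtb16 had 1, 0 and 4 counts in the EWS-OCT-4 libraries, against 109, 121 and 114 in the EGFP libraries (-5.67, SE 0.58, and -7.16 without EWS-OCT-4 library 3). Of 9 tested stress genes, 1 rose, 6 fell and 2 did not pass (median -0.80). The heat shock genes Hspa1b and Hspa1a, near-identical copies whose tags can be split uncertainly, fell by 3.04 and 2.68 on the log2 scale. Hmox1, the haem oxygenase that heavy metals induce, fell to 33.5 ± 3.56 CPM in the EWS-OCT-4 line, against 187 ± 7.19 CPM in the EGFP line (-2.48, SE 0.13, edgeR adjusted p = 1.8e-07).

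Among 8915 other tested genes averaging 10 CPM or more, those whose values followed Mt1 most closely over the 6 libraries were Mycbp2, Dusp9, Nkain1 and Atg16l2. Their root mean square difference from Mt1, after centring log2 CPM for each gene, was 0.051, 0.082, 0.091 and 0.098. The same measure between Mt1 and Mt2 was 0.31, and 181 genes were closer to Mt1 than Mt2 was. For Mt2 the closest were Psap, Elf3, Wbscr25, Cacnb3 and Adam19 (0.090 to 0.15), and for Slc30a1 they were Ttbk2, Mitd1, Zzef1, Fam104a and Polr3e (0.051 to 0.068). The 4 genes listed for Mt1 had log2 fold changes of -2.87 to -2.66 (Mt1, -2.82), those for Mt2 -3.50 to -3.24 (Mt2, -3.33) and those for Slc30a1 -0.997 to -0.82 (Slc30a1, -0.90). The 6 libraries share 2 lines, and a first principal component held 90.4% of all variance. Genes picked as close by this measure therefore had to have similar log2 fold changes.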

How the data were processed

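The authors deposited 1 table of unnormalised read counts by gene symbol for each library. QuantSeq 3′ libraries were made from 500 ng of total RNA, per the labels' protocols. Bowtie2, edgeR and the build mm10 appear in the submitters' processing notes. Their versions, the counting tool, the annotation and whether strand was used: not given in the sources used here. Lines were grouped by title. The 35 repeated symbols (79 lines) were summed; none was a member. Counts were scaled by TMM (factors 0.971 to 1.03) in edgeR 4.0.16, filtered with filterByExpr (minimum count 10, minimum total 15; 13467 genes tested, 9771 not), and tested across all genes with a robust quasi-likelihood F test, 2-sided, with Benjamini-Hochberg adjustment at 0.05. CPM are per 1000000 counts of tested genes, TMM-scaled. A gene could pass the filter through the libraries of a single line, as did Mt3, Mt4, Slc30a10, Slc39a2 and Zbtb16. The adjusted p of such a gene is not taken as evidence for a direction. The SE is the log2 fold change divided by the square root of F. The test was tested on simulated data.

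The members and gene lists were chosen with earlier results of these data known. Named were all members, every called gene of the other metallothionein, SLC30, SLC39 and MTF-1 target lists, the 3 largest called changes of each further list, and the 5 genes closest to each of Mt1, Mt2 and Slc30a1, of which 1 is not reported here; uncalled or untested genes of these lists were named after their values were seen, as were Nr3c1, Plac1, Prl3d1, Cubn and Gata4. Coordinates are of GENCODE M21 (GRCm38, the assembly of mm10); promoter sequences are RefSeq's (GRCm38.p6), found for 8 of 10 members and not for Slc39a4 or Slc39a14. Alternatives were each library left out, libraries 1 and 2 only, the replicate number as a block, scaling by DESeq2's size factors, Rn45s left out, all genes unfiltered, genes averaging 10 CPM or more, limma-voom (limma 3.58.1), DESeq2 1.42.0, edgeR's test of changes beyond 1.5-fold, and a threshold of 0.01 on the adjusted p.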

Additional observations from a re-analysis of the deposited data

How the results depend on the processing

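The 7 members called lower kept that call under all 16 alternatives, in which 7 to 10 members were called in all. Log2 fold changes of the members ranged from -2.86 to -2.76 for Mt1, -3.41 to -3.07 for Mt2, -0.87 to -0.78 for Mtf1, -1.03 to -0.81 for Slc30a1, -4.96 to -4.49 for Slc30a4, -1.76 to -1.51 for Slc39a1 and -3.44 to -2.88 for Slc39a14. Rn45s, the ribosomal RNA precursor, took 7.36 to 10.5% of counts in EWS-OCT-4 libraries and 5.85 to 6.44% in EGFP libraries, and without it the same 7 members were called. Slc39a4, not called, changed sign in 6 alternatives: 0.0698 and 0.0270 without EWS-OCT-4 library 1 or 2, 0.000154 and 0.103 without EGFP library 1 or 2, 0.0327 with genes averaging 10 CPM or more and 0.0035 with limma-voom; with 1 library left out it ranged from -0.159 to 0.103. Slc30a9, not called, changed sign to 0.0561 without EWS-OCT-4 library 3, 0.000705 without EGFP library 3, 0.119 with libraries 1 and 2 only and 0.0024 with genes averaging 10 CPM or more (-0.141 to 0.0561 with 1 library left out), and Pgf to 0.0389 with libraries 1 and 2 only. The cause was not tested. Slc39a8 was removed by the filter at a mean of 10 CPM.

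Over all genes, 6343 to 10240 were called, against 9073; with 1 library left out it was 8122 to 9385. Of genes in the pathway lists, 35 to 51 were called, against 48, and 42 to 48 with 1 library left out. Of SLC39 importers outside the 10, 4 were called at a mean of at least 10 CPM and 5 against a 1.5-fold change, where fewer genes were tested or small changes cannot pass, in place of 8. Of 11 tested copper genes 2 passed the 1.5-fold test, in place of 5.

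Library numbers were shared by the lines. Deviations of libraries 1, 2 and 3 from their line means correlated with the same number of the other line at 0.04, 0.05 and 0.15 over genes. Between the lines, libraries 1 and 2 correlated at 0.075 and 0.076, and library 3 with libraries 1 or 2 at -0.10 to -0.09. The numbers were not taken to pair the libraries, but library 3 may share a small deviation between the lines. With a block on replicate number, 8968 genes were called, 7 of the members and 49 of the list genes. Low counts limit Slc39a8, Mt3 and Mt4: 3 counts per library correspond to 0.195 to 0.277 CPM.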
